A study of Mus musculus with 9 samples.

Results

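Complement genes were read in 9 RNA-seq libraries of mouse podocytes, the epithelial cells that wrap the capillaries of the kidney glomerulus. The genes were 9, taken by symbol out of the 23309 symbols of the deposited table: C1ra, C1s, C4b, C3, Cfb, Serping1, Clu, Cd55 and Cd59a, and all 9 were found. The series is on podocyte injury and repair, and WT1, a transcription factor of podocytes, stands in its title. Libraries fell into 3 groups of 3, podocytes 14 days after an injection abbreviated ADR (ADR_D14), podocytes 9 days after it (ADR_D9) and podocytes of animals given PBS. The labels describe all 3 groups as wildtype, aged 7-8 weeks and of the strain mTmG-Nphs2cre, a fluorescent reporter combined with a Cre driven by the podocin promoter. Cells were isolated as GFP-positive, so a cell counted as a podocyte once it had expressed that Cre. Levels are in FPKM, fragments counted per length of transcript and per mapped fragment, and the labels do not tie libraries to separate animals. The p-values below therefore measure the spread between these libraries, which may be technical.

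Complement is a cascade of plasma and membrane proteins that tags surfaces and can end in a pore, the membrane attack complex. C1r and C1s are the proteases of C1, the complex that starts the classical pathway. They lead to cleavage of C4 and C2, while factor B serves the alternative pathway, and both routes converge on C3. Cells that lie against the plasma filtrate hold the cascade off with membrane regulators. CD55 speeds the decay of the enzymes that cleave C3, CD59 blocks the assembly of the pore, C1 inhibitor (Serping1) inactivates C1r and C1s, and clusterin (Clu) binds terminal complexes in fluid. Complement deposits and their regulators are long-standing subjects of glomerular disease.

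Several of these genes lie beside a near copy, and the copies matter for reading every value below. Of all 50-base windows in the GENCODE M21 transcript of C1ra, 48.0% also occur in that of C1rb, and the shares were 24.3% for C1s with Gm5077 (RefSeq C1s2), 10.7% for Cd55 with Daf2 (RefSeq Cd55b), 35.2% for C4b with C4a and 3.98% for Cd59a with Cd59b. How reads mapping to both were counted is not given in the sources used here. The bases upstream of 2 of these pairs are shown for the long stretch they share. C1s and Gm5077, which also followed each other across libraries, shared only 35 aligned bases there, of which 27 matched (77.1%). Each line gives the 250 bases before the gene's RefSeq start on GRCm38.p6, a later build than that of the table, with capitals for the stretch that aligned best between the copies. C1ra lies at chr6:124512371-124512620 on the plus strand and C1rb at chr6:124570180-124570429 on the plus strand. Cd55 lies at chr1:130462745-130462994 and Daf2 at chr1:130423044-130423293, both on the minus strand.
C1ra: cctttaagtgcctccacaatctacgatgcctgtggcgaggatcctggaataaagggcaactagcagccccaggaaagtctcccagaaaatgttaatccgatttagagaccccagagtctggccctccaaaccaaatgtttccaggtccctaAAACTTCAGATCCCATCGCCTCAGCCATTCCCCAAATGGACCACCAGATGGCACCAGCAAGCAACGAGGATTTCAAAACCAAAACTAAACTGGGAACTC
C1rb: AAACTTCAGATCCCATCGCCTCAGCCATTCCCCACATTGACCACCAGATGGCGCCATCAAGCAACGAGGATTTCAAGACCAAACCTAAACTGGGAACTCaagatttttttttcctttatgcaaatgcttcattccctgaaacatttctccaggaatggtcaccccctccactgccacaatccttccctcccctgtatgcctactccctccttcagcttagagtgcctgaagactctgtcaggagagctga
Cd55: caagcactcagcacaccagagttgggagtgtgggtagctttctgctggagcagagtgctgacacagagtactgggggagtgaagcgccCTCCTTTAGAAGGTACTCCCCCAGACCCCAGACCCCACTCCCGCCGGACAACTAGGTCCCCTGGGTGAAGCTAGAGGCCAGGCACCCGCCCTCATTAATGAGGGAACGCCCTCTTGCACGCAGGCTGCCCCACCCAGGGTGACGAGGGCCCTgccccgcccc
Daf2: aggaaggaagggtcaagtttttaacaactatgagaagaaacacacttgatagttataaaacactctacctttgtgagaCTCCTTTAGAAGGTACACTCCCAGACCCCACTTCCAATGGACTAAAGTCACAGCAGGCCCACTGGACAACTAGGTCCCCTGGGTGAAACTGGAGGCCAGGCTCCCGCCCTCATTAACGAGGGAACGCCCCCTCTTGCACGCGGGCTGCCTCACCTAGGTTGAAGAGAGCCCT
For C1ra and C1rb the capitals hold 99 aligned bases, of which 93 match (93.9%), and they end next to the start of C1ra but lie 152 to 250 bases before the start of C1rb. For Cd55 and Daf2 they hold 152 aligned bases, of which 133 match (87.5%), and they end close to both starts. No GENCODE M21 transcript of C1ra, C1rb or Daf2 was found to begin within the 50 bases after the RefSeq start, while 2 of Cd55 were. The placements therefore hold for the RefSeq starts only. RefSeq upstream sequence was matched for 5 of the 9 genes, C1ra, C1s, C3, Cd55 and Cd59a. C4b, Cfb, Serping1 and Clu had none in the table.

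C1s was set beside C1ra because the 2 genes neighbour each other on chromosome 6 and had like profiles without being copies. Its RefSeq entry, C1s1, lists more than 1 start, and the window of one of them, chr6:124542322-124542571 on the minus strand, is printed with capitals for the stretch that aligned best with the C1ra window.
C1s: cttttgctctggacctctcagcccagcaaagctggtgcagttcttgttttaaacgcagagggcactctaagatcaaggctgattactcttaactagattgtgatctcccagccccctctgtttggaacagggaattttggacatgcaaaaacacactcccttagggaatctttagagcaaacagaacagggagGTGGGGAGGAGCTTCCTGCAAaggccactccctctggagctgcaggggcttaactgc
That stretch held 18 aligned bases, of which 16 matched, against 99 between C1ra and C1rb.

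Libraries differed in depth and in markers of other kidney cells. Depth relative to PBS replicate 2, estimated from the steps between low values, was 0.239 to 0.569 in ADR_D14 libraries, 0.786 to 0.889 in ADR_D9 libraries and 1 to 1.09 in PBS libraries. Of 15 podocyte markers none was at 0 in any library, and their summed level was 3426 FPKM in ADR_D14 replicate 1 against 10918 to 17614 FPKM in the other 8 libraries. ADR_D14 replicate 1 and ADR_D9 replicate 3 stood apart. A marker was counted as high where it was at 1 FPKM or more and above 4 times its highest PBS value. In these 2 libraries, 12 and 12 of 19 leukocyte markers, 13 and 14 of 15 endothelial markers, 13 and 5 of 14 proximal tubule markers, and 13 and 10 of 14 from distal tubule, loop and duct were high. Summed leukocyte markers were 1401 and 954 FPKM there, against 8.74 to 42.5 FPKM in the other ADR libraries and 6.40 to 84.7 FPKM in PBS libraries. Tyrobp alone held 824 and 561 FPKM of the sums in these 2 libraries. Red cell markers summed to 66.5 and 248 FPKM in these libraries but highest, to 548 FPKM, in ADR_D9 replicate 1, against at most 5.45 FPKM in the other 6. Mesangial and pericyte markers summed to 457 FPKM in ADR_D9 replicate 3, with 6 of 12 high. Ptprc, the pan-leukocyte phosphatase CD45, was at 7.05 FPKM in ADR_D14 replicate 1 and 7.88 FPKM in ADR_D9 replicate 3, and at most at 0.0912 FPKM elsewhere. Not every leukocyte marker did this. Csf1r was at 9.23 and 17.6 FPKM in these 2 libraries, against 0.650 to 8.95 FPKM elsewhere. In ADR_D14 replicate 1, 4 of the 19 leukocyte markers were listed at 0, Emr1 among them. Y-linked transcripts summed to 53.6 to 70.5 FPKM in ADR_D14 replicate 2, ADR_D9 replicate 1 and the PBS libraries, and to at most 1.06 FPKM in the other 4.

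Levels per length covered a wide range, and the 2 membrane regulators dominated it. The median over the 9 libraries was 301 FPKM for Cd59a, 283 FPKM for Cd55, 51.5 FPKM for Clu, 14.3 FPKM for C1s, 12.3 FPKM for Serping1, 7.14 FPKM for C1ra, 0.904 FPKM for C3, 0.644 FPKM for Cfb and 0.0185 FPKM for C4b. Cd59a exceeded Cd55 in 4 of 9 libraries and C1s exceeded Serping1 in 4 of 9, so neither pair had a fixed order. Cd55 exceeded Clu, Clu exceeded C1s and C1ra exceeded C3 in 9 of 9 libraries. Together, Cd55 and Cd59a held 62.8% to 92.9% of the summed FPKM of the 9 genes, lowest in ADR_D14 replicate 1. The sum of C1ra, C1s, C4b, C3 and Cfb was 13.97 to 68.3 FPKM on day 14, 6.96 to 30.2 FPKM on day 9 and 27.9 to 51.6 FPKM with PBS. Cfb alone made up 62.6 of the 68.3 FPKM, in ADR_D14 replicate 1. Without Cfb the sum was 5.64 to 21.1 FPKM on day 14, 6.31 to 25.2 FPKM on day 9 and 27.1 to 50.9 FPKM with PBS. In every library the sum of all 5 lay below that of the 2 membrane regulators, by 3.19-fold in ADR_D14 replicate 1 and by up to 125-fold in ADR_D9 replicate 1. Without Cfb the gap in ADR_D14 replicate 1 was 38.6-fold, and the narrowest was 9.93-fold in PBS replicate 2.

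**Figure D1:**
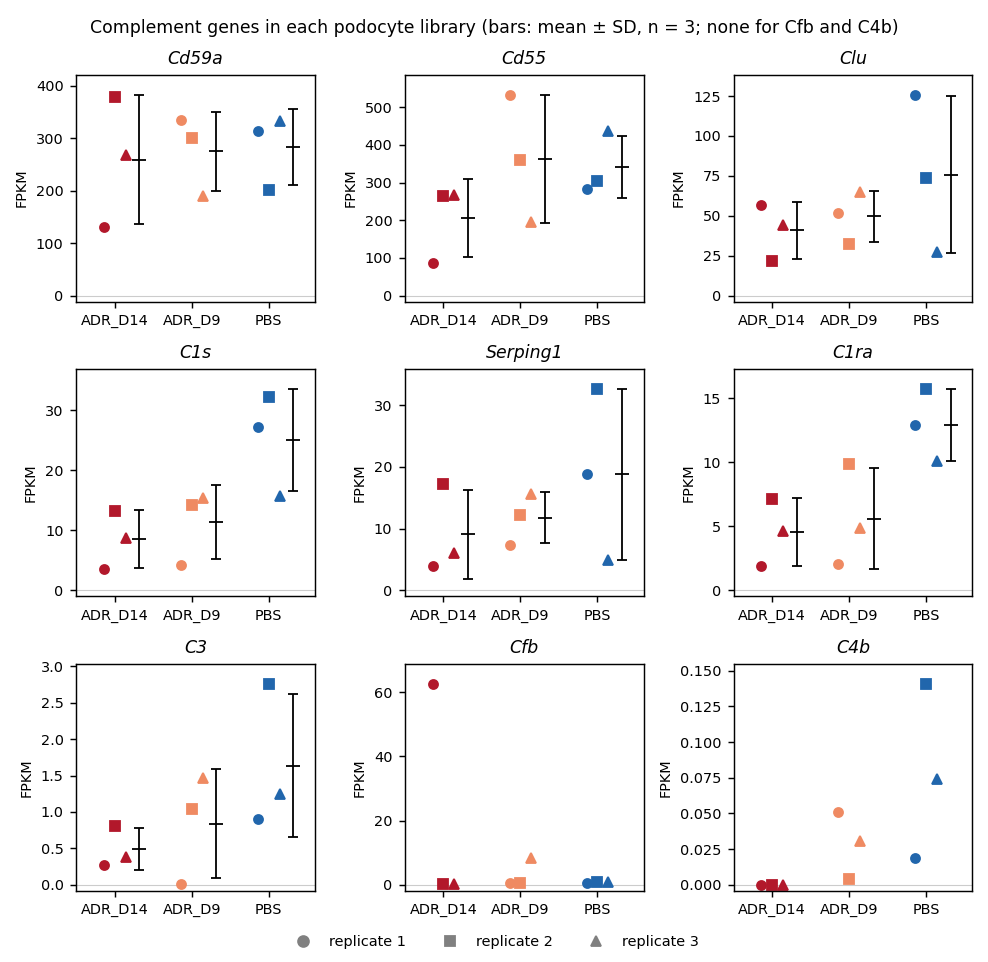
Level of each complement gene (FPKM, linear axes that differ between panels) in the ADR_D14, ADR_D9 and PBS libraries; points are libraries, shapes replicate numbers, and bars the mean ± SD of 3 libraries, left out for Cfb and C4b. C1ra and C1s lie below all PBS libraries in both ADR groups, Cfb stands out in ADR_D14 replicate 1 (62.6 FPKM) and ADR_D9 replicate 3 (8.39 FPKM), and Cd59a covers much the same range in all groups.

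The first comparison asked how the initiating proteases stood after ADR. C1ra was at 1.85, 7.14 and 4.65 FPKM in the ADR_D14 libraries, at 2.03, 9.87 and 4.89 FPKM in the ADR_D9 libraries and at 12.9, 15.7 and 10.1 FPKM in the PBS libraries. Every ADR library lay below every PBS library, and replicate 1 was the lowest of both ADR groups. The gap was narrow at one point, 9.87 FPKM in ADR_D9 replicate 2 against 10.1 FPKM in PBS replicate 3. The mean was 4.55 ± 2.65 FPKM on day 14, 5.60 ± 3.97 FPKM on day 9 and 12.9 ± 2.81 FPKM with PBS (SD, n = 3 each), a ratio of 0.352 for day 14 over PBS and of 0.434 for day 9 over PBS. In these bulk libraries, fewer cells that carry a transcript and less of it per cell cannot be told apart.

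C1s, the protease that C1r activates, had the same order of groups. Its values were 3.52, 13.1 and 8.77 FPKM on day 14, 4.23, 14.3 and 15.4 FPKM on day 9, and 27.2, 32.3 and 15.7 FPKM with PBS. All ADR libraries again lay below all PBS libraries, but the highest day 9 library (15.4 FPKM) nearly reached the lowest PBS library (15.7 FPKM). Means were 8.48 ± 4.82 FPKM on day 14, 11.3 ± 6.16 FPKM on day 9 and 25.05 ± 8.49 FPKM with PBS (SD, n = 3 each). C1s stood at 1.45 to 3.16 times the level of C1ra per length (median 1.91), and 7 of 9 libraries lay between 1.55 and 2.11.

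Neither protease passed the test. Differences were tested with limma on log2(FPKM + 1) over 9788 genes with all 9 libraries in 1 fit, a two-sided test with Benjamini-Hochberg adjustment in which an adjusted p under 0.05 counts as passed. Each log2 change below, with its interval, has the median gene's change taken off. That was −0.15 for day 14 against PBS, 0.04 for day 9 against PBS and −0.22 for day 14 against day 9. The limma p-values test the change before this step, so they are for a slightly different quantity than the change and interval beside them. On day 14 against PBS the log2 change was −1.29 ± 0.52 (SE) for C1ra (limma adjusted p = 0.0912) and −1.40 ± 0.56 for C1s (limma adjusted p = 0.0892). Their 95% intervals, not adjusted for the number of genes, ran from −2.48 to −0.10 and from −2.68 to −0.13. On day 9 against PBS the log2 change was −1.28 ± 0.52 (SE) for C1ra and −1.23 ± 0.56 for C1s, with a limma adjusted p of 0.9999 for each. The 2 comparisons share the PBS libraries. Between day 14 and day 9 the log2 change was 0.03 for C1ra (95% interval −1.16 to 1.22) and −0.14 for C1s (95% interval −1.42 to 1.14), so a difference of more than 2-fold either way was not shut out.

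Without ADR_D14 replicate 1 and ADR_D9 replicate 3, the libraries with markers of other cells, the day 14 changes were −0.85 for C1ra and −0.92 for C1s (limma adjusted p = 0.195 and 0.157). The day 9 changes were then −1.27 and −1.50. Without ADR_D9 replicate 1, where both proteases were lowest on day 9, the day 9 changes were −0.79 for C1ra and −0.67 for C1s. That library also had the highest red cell sum. Summed mesangial and pericyte markers were at 38.2, 46.0 and 46.8 FPKM on day 14 and at 48.5, 57.5 and 457 FPKM on day 9. With PBS they were at 139, 84.1 and 52.4 FPKM, so the day 14 libraries lay below the PBS libraries here too. Summed parietal epithelial markers were at 69.7, 43.8 and 125 FPKM on day 14 and at 18.3, 32.8 and 28.9 FPKM on day 9. With PBS they were at 40.2, 64.2 and 50.9 FPKM, so for these markers the day 9 libraries lay below the PBS libraries. Y-linked transcripts were high in all PBS libraries but low in ADR_D14 replicates 1 and 3 and in ADR_D9 replicates 2 and 3. With a term for them the day 14 changes were −1.41 for C1ra and −1.62 for C1s (limma adjusted p = 0.221 and 0.195). The day 9 changes were then −1.43 and −1.46. The part of depth and of other cells in these differences was not tested, and the Y-linked difference largely runs along with that between ADR and PBS.

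The near copies had the same low libraries. C1rb was at 1.45, 5.99 and 2.95 FPKM on day 14, at 1.20, 5.21 and 2.71 FPKM on day 9 and at 7.23, 7.84 and 5.30 FPKM with PBS. Its day 9 libraries lay below its PBS libraries, while its day 14 libraries overlapped them. Gm5077, the copy of C1s, was at 0.681, 3.04 and 1.23 FPKM on day 14, at 0.865, 2.82 and 1.65 FPKM on day 9 and at 4.94, 4.96 and 2.77 FPKM with PBS. With each copy summed into its partner, the day 14 change against PBS was −1.20 for C1ra and C1rb together and −1.40 for C1s and Gm5077 together (limma adjusted p = 0.125 and 0.0895). C1ra exceeded C1rb by 1.19 to 2.004 times, and C1s exceeded Gm5077 by 4.32 to 9.37 times.

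**Figure D2:**
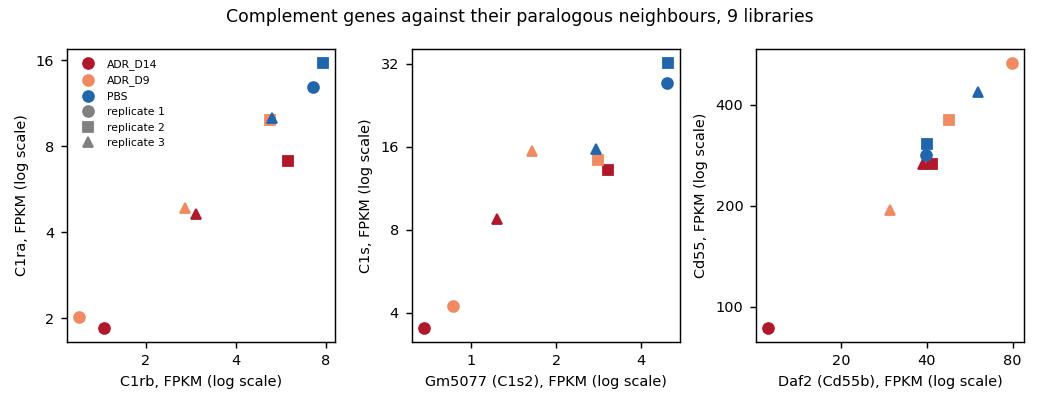
C1ra against C1rb, C1s against Gm5077 (RefSeq C1s2) and Cd55 against Daf2 (RefSeq Cd55b), all in FPKM on log axes; each point is 1 of the 9 libraries, colours are groups and shapes replicate numbers. Points lie close to a line in each panel, tightest for Cd55 and Daf2, whose ratio stayed between 6.36 and 7.78.

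The substrates downstream of C1 were scarce. C4b, which encodes the C4 component cleaved by C1s, was listed at 0 in all 3 ADR_D14 libraries, at 0.0512, 0.00377 and 0.0307 FPKM in the ADR_D9 libraries and at 0.0185, 0.141 and 0.0744 FPKM in the PBS libraries. No library reached 1 FPKM, so C4b was not tested. Its near copy C4a stayed at or below 0.0877 FPKM, and with the shallow day 14 libraries a 0 there does not show that the RNA was absent. Genes whose median was 20 FPKM or more numbered 3049, and 16 of them had a 0 in 1 library or more, so a 0 can also be a failed estimate.

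C3, the component on which all pathways converge, sat near the limit of the filter. It was at 0.266, 0.813 and 0.385 FPKM on day 14, at 0.00898, 1.04 and 1.46 FPKM on day 9, and at 0.904, 2.76 and 1.25 FPKM with PBS. Each day 14 value was under each PBS value, by a gap of 0.813 against 0.904 FPKM at its narrowest, and the day 9 libraries overlapped both groups. Only 4 libraries reached 1 FPKM, 2 on day 9 and 2 with PBS, so C3 entered the test through those groups. Its log2 change was −0.63 ± 0.38 (SE) on day 14 and −0.59 ± 0.38 on day 9 against PBS (limma adjusted p = 0.185 and 0.9999), on a scale where the added 1 FPKM shrinks the change of such low genes. With 0.1 FPKM added in place of 1 it was −1.31 on day 14 and −1.48 on day 9. The day 14 change was −0.21 with the trend on transcript length and GC content removed and −0.36 without PBS replicate 2. The day 9 change was −0.19 without ADR_D9 replicate 1 and −0.30 without PBS replicate 2, and none of these passed.

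Cfb, the protease of the alternative pathway's C3 convertase, was high in 2 libraries and low in the rest. It was at 62.6, 0.178 and 0.168 FPKM on day 14, at 0.644, 0.616 and 8.39 FPKM on day 9 and at 0.429, 0.725 and 0.759 FPKM with PBS. The 62.6 FPKM belongs to ADR_D14 replicate 1 and the 8.39 FPKM to ADR_D9 replicate 3. The other 4 ADR libraries, at 0.168 to 0.644 FPKM, lay within or below the PBS range. Those 2 libraries are also the ones with summed leukocyte markers of 1401 and 954 FPKM and summed proximal tubule markers of 2795 and 153 FPKM, against at most 84.7 and 55.9 FPKM in the other 7 libraries. Markers of distal tubule, loop and duct summed to 12545 and 612 FPKM in them, against at most 55.0 FPKM in the other 7. Aqp2 alone held 9099 and 226 FPKM of these 2 sums. Endothelial markers summed to 971 and 3716 FPKM, against at most 705 FPKM. The part of those cells in the Cfb level was not tested. Cfb reached 1 FPKM in only these 2 libraries and was therefore not tested. With no filter, its log2 change was 1.45 ± 1.56 (SE) on day 14 and 0.83 ± 1.56 on day 9 against PBS (limma adjusted p = 0.64 and 1).

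Serping1, the inhibitor of C1r and C1s, did not separate the groups. It was at 3.87, 17.3 and 6.02 FPKM on day 14, at 7.37, 12.3 and 15.7 FPKM on day 9, and at 18.9, 32.6 and 4.94 FPKM with PBS. PBS held both the highest library and one of the lowest, so the groups overlapped. The log2 change was −0.74 ± 0.69 (SE) on day 14 and −0.40 ± 0.69 on day 9 against PBS (limma adjusted p = 0.393 and 0.9999). Without PBS replicate 3, the low one, it was −1.42 on day 14 and −1.13 on day 9. Without PBS replicate 2, the high one, it was −0.21 and 0.15. The day 14 change was −1.30 without ADR_D14 replicate 2 and −0.31 without ADR_D14 replicate 1, the day 9 change was −0.22 without PBS replicate 1 and −0.11 without ADR_D9 replicate 1, and none of these passed. Per length, the inhibitor stood at 0.315 to 1.74 times C1s, with PBS replicate 3 at the low end and ADR_D9 replicate 1 at the high end.

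Clu, the fluid-phase regulator of the terminal pathway, also varied most among PBS libraries. It was at 56.7, 21.5 and 44.4 FPKM on day 14, at 51.5, 32.6 and 64.6 FPKM on day 9, and at 126, 73.7 and 27.6 FPKM with PBS. PBS replicates 1 and 2 lay above all ADR libraries and PBS replicate 3 below 5 of the 6. The log2 change was −0.59 ± 0.57 (SE) on day 14 and −0.44 ± 0.57 on day 9 against PBS (limma adjusted p = 0.391 and 0.9999). Without PBS replicate 3 it was −1.15 and −1.05, and without PBS replicate 1 it was −0.11 and 0.06, so 1 PBS library set its size and, on day 9, its sign.

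Cd55, the membrane regulator that disables C3 convertases, was at 86.4, 265 and 267 FPKM on day 14, at 533, 360 and 194 FPKM on day 9 and at 283, 305 and 436 FPKM with PBS. The day 14 values were all under the PBS range, 2 of them just under it, while the day 9 libraries spanned the PBS range on both sides. Means were 206 ± 104 FPKM on day 14, 362 ± 170 FPKM on day 9 and 341 ± 82.3 FPKM with PBS (SD, n = 3 each). The lowest value of each ADR group came from the library with markers of other cells, ADR_D14 replicate 1 and ADR_D9 replicate 3. The log2 change was −0.72 ± 0.51 (SE) for day 14 against PBS, −0.04 ± 0.51 for day 9 against PBS and −0.65 ± 0.51 for day 14 against day 9 (limma adjusted p = 0.261, 0.9999 and 0.260). Without those 2 libraries the changes were −0.16, 0.37 and −0.53. With a term for the summed Y-linked transcripts the change against PBS was 0.05 on day 14 and 0.61 on day 9, and neither passed.

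Daf2, the neighbour of Cd55 with the shared upstream stretch printed above, followed it closely. It was at 11.1, 41.8 and 38.8 FPKM on day 14, at 79.7, 47.9 and 29.8 FPKM on day 9, and at 39.7, 40.2 and 60.5 FPKM with PBS. The ratio of Cd55 to Daf2 moved by 1.22-fold across the 9 libraries while Cd55 itself moved by 6.17-fold. The 2 transcripts share 10.7% of the windows of Cd55 and 25.9% of those of Daf2, and the part of reads matching both in this ratio was not tested.

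Cd59a, the regulator that blocks the membrane attack complex, was at 131, 378 and 269 FPKM on day 14, at 334, 301 and 190 FPKM on day 9 and at 315, 200.3 and 334 FPKM with PBS. The 3 groups overlapped fully, and ADR_D14 held both the lowest and the highest library. The log2 change was −0.07 ± 0.42 (SE) for day 14 against PBS, with a 95% interval of −1.02 to 0.88, and −0.08 ± 0.42 for day 9 against PBS, with one of −1.03 to 0.87 (limma adjusted p = 0.739 and 0.9999). These intervals hold changes of up to about 2-fold either way, so they do not show that Cd59a stayed level. Without the 2 libraries with markers of other cells the changes were 0.38 and 0.19. Its copy Cd59b was low, at 1.31 to 3.77 FPKM.

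**Figure D3:**
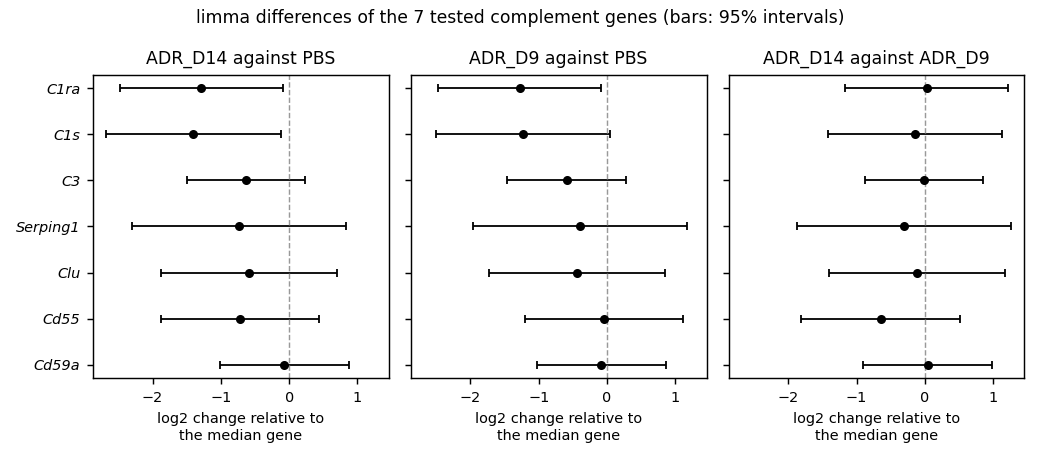
Log2 change relative to the median of all genes tested (x axis), with its 95% interval as a bar, for the 7 tested complement genes in ADR_D14 against PBS, ADR_D9 against PBS and ADR_D14 against ADR_D9. Against PBS the points of C1ra and C1s lie at −1.23 to −1.40, that of Cd59a near 0, and between the 2 days every interval holds 0.

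Of the 9 genes, 7 met the filter of at least 1 FPKM in at least 3 libraries, and none of the 7 passed limma in any comparison. On day 14 against PBS, 0 of 7 passed, where 17.1% of all genes tested did (6.32% higher and 10.7% lower), and 2 of 7 had an unadjusted p under 0.05, C1ra and C1s, where 34.2% of all genes did. On day 9 against PBS, 0 of 7 passed, where 0% of all genes did, and 1 of 7, C1ra, had an unadjusted p under 0.05 (0.0424), where 3.11% of all genes did. Between day 14 and day 9, 0 of 7 passed, where 15.7% of all genes did (5.71% higher and 9.98% lower), and 0 of 7 had an unadjusted p under 0.05, where 34.4% of all genes did. The 17.1%, 1670 genes, depended most on PBS replicates 2 and 3: 0 genes passed without PBS replicate 2 and 150 without PBS replicate 3. Without PBS replicate 2, 2349 were still at an unadjusted p under 0.05. Without PBS replicate 1 it was 1121 genes that passed, and without ADR_D9 replicate 2 it was 1081. The 17.1% was also 0%, with 2282 genes at an unadjusted p under 0.05, once a term for Y-linked RNA entered the fit. The 15.7%, 1536 genes, was 729 without PBS replicate 2 and 497, 625 and 381 without ADR_D9 replicate 1, 2 and 3 in turn.

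Groups that did not overlap, with the ADR libraries lower, were seen for 4 of 7 genes on day 14 against PBS (C1ra, C1s, C3 and Cd55), where 23.8% of all genes showed this. For day 9 against PBS it was 2 of 7 (C1ra and C1s), where 6.63% of all genes did, and for day 14 against day 9 it was 0 of 7, where 24.6% did. All 7 lay below the median gene against PBS on both days, and 5 of 7 did between day 14 and day 9, where the share of all genes is 50% by construction. Against PBS, Cd59a (−0.07 on day 14 and −0.08 on day 9) and Cd55 on day 9 (−0.04) lay close to 0. Without the 2 libraries with markers of other cells these changes were 0.38, 0.19 and 0.37, above the median gene. The median log2 change of the 7 was −0.72 for day 14 against PBS, −0.44 for day 9 against PBS and −0.11 for day 14 against day 9, beside 0 for all genes tested. The 2 genes left untested are not part of these counts. C3 passed the filter only through day 9 and PBS libraries, so its low place on day 14 supports nothing, while the other 6 were above 1 FPKM in every library.

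Likeness between genes was measured as the mean absolute difference of their log2(FPKM + 1) profiles, each centred on its own mean over the 9 libraries. C1ra and C1s differed by 0.212 on this measure, and of 9772 genes compared 0.0102% lay closer to C1ra than C1s did. Genes outside the complement list nearest to C1ra were Gm889 (0.210), Sik2 (0.247) and Birc3 (0.252), and nearest to C1s were Birc3 (0.225), Gm889 (0.291) and Rfx2 (0.296). Cd55 and Daf2 differed by 0.0778, and no other gene compared lay closer to Cd55. Outside the list, Cd55 was nearest to Plekhg1 (0.167), Bmpr1b (0.171) and Tcf21 (0.171), the last a podocyte transcription factor, and Cd59a to R3hdm4 (0.106), Tcta (0.137) and Dach1 (0.139). C3 was nearest to Hspb7, Sod1 and Mad2l1bp (0.188 to 0.214), Serping1 to Trim69, Chka and Hist1h3a (0.285 to 0.380), and Clu to Stk40, Rnf39 and Cyb561 (0.334 to 0.350). These values describe 9 libraries that share groups, depth and, in 2 cases, other cells.

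Beyond these 9 genes, a list of the complement pathway held 43 further genes in the table, 9 of them tested, and 0 of the 9 passed limma in any comparison. Of all genes tested, 17.1% passed for day 14 against PBS, 0% for day 9 against PBS and 15.7% for day 14 against day 9. In each of these comparisons 1 of the 9 had an unadjusted p under 0.05 by limma. The shares of all genes at that level were 34.2%, 3.11% and 34.4% in turn. Another 19 of the 43 stayed at or below 1 FPKM in every library. Among them were C6, C9 and Hc, whose products (C6, C9 and C5) take part in pore formation, and C4bp, a plasma inhibitor, all 4 named after their values were seen. Cr1l, which encodes the rodent membrane regulator Crry, was the most abundant of the 43. It was at 73.8, 145 and 113 FPKM on day 14, at 90.7, 85.8 and 90.0 FPKM on day 9 and at 87.2, 83.4 and 80.02 FPKM with PBS. Day 9 libraries and PBS libraries lay close together, and day 14 held the lowest and the highest library. Its log2 change was 0.50 ± 0.25 (SE) on day 14 against PBS (limma adjusted p = 0.358), and 0.78 without the 2 libraries with markers of other cells (limma adjusted p = 0.0601).

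C8g, a subunit of the terminal component C8, was at 3.997, 2.08 and 0.692 FPKM on day 14, at 3.72, 4.37 and 6.96 FPKM on day 9, and at 5.13, 5.34 and 6.55 FPKM with PBS. Day 14 and PBS did not overlap. Its log2 change was −1.02 ± 0.40 (SE) on day 14 against PBS (limma adjusted p = 0.0775), and it passed once the 2 libraries with markers of other cells were left out (−1.38, limma adjusted p = 0.0177). Masp1, a protease of the lectin pathway picked after its values were seen, was at 0, 2.40 and 4.39 FPKM on day 14, at 0.400, 0.845 and 0.172 FPKM on day 9, and at 2.95, 4.97 and 3.52 FPKM with PBS. Day 9 and PBS did not overlap, and the log2 change was −1.75 (limma adjusted p = 0.9999). No day 9 library reached 1 FPKM, so Masp1 entered the test only through day 14 and PBS libraries. Its low place on day 9 therefore supports nothing, whether set against PBS or against day 14. Between day 14 and day 9 its log2 change was 1.08 (limma adjusted p = 0.295), and 1.60 without those 2 libraries (limma adjusted p = 0.0381).

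Some pathway genes were high in one or both of the libraries where Cfb was highest. Of the 43 genes, 11 were high, by the rule used for markers, in ADR_D14 replicate 1 (25.6%, where 9.11% of all 23309 genes were). In ADR_D9 replicate 3 it was 4 (9.3%, where 5.8% of all genes were), and in any of the other 4 ADR libraries it was 1 (2.33%, where 1.16% of all genes were), Cfd in ADR_D14 replicate 3 at 1.02 FPKM. Itgb2, Itgam and Cd93 were high in both, and C5ar1 only in ADR_D9 replicate 3. Cfp, C1qb, C1qc, C2, Mbl1, Fcnb, C8a and C3ar1 were high only in ADR_D14 replicate 1. Cfp, which encodes properdin, the stabiliser of the alternative C3 convertase, was at 124 FPKM in ADR_D14 replicate 1 and 6.23 FPKM in ADR_D9 replicate 3, against 0 to 0.919 FPKM in the other ADR libraries and 0.609 to 1.65 FPKM with PBS. C1qc and C1qb, subunits of the recognition part of C1, were at 24.0 and 19.9 FPKM in ADR_D14 replicate 1, at most at 0.141 FPKM in the other ADR libraries, and listed at 0 in all PBS libraries. C1qa, the remaining subunit, was at 0.166 FPKM in ADR_D14 replicate 1 and listed at 0 in the other 8 libraries, and Vsig4, a complement receptor of macrophages, was listed at 0 in all 9. Itgb2, the beta chain of complement receptor 3, was at 6.84 FPKM in ADR_D14 replicate 1 and 16.3 FPKM in ADR_D9 replicate 3, against at most 0.529 FPKM elsewhere. C5ar1, the receptor for C5a, was at 1.41 and 16.9 FPKM in those 2 libraries and at most at 0.958 FPKM elsewhere. C2, the neighbour of Cfb, was at 3.40 FPKM in ADR_D14 replicate 1, but at 0.0490 FPKM in ADR_D9 replicate 3, where Cfb was at 8.39 FPKM. C1qa, C1qb, C5ar1, Itgam, Cd93, Vsig4, Cfd, C2, Mbl1, Fcnb, C8a and C3ar1 were picked after their values were seen.

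**Figure D4:**
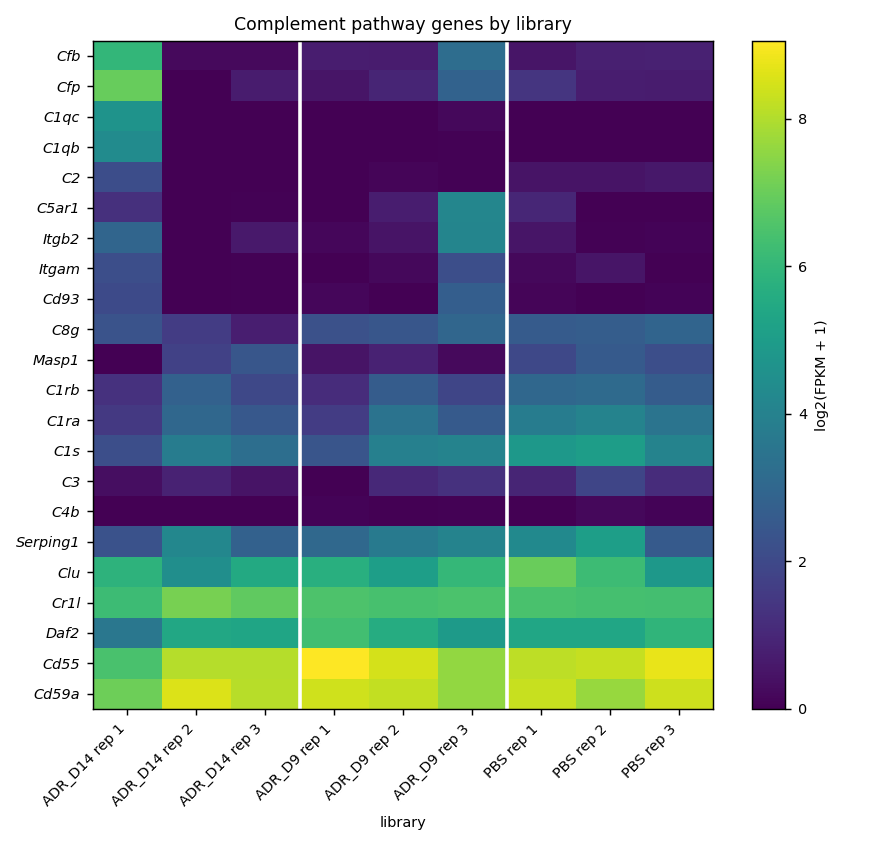
Log2(FPKM + 1) of 22 complement genes (rows) in the 9 libraries (columns, ADR_D14, ADR_D9 and PBS from left to right, groups parted by white lines), drawn as colour. The top rows, Cfb and Cfp to Cd93, are bright mainly in ADR_D14 replicate 1 and ADR_D9 replicate 3, while Cd55, Cd59a and Cr1l are bright in all 9 libraries.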

How the data were processed

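The authors deposited 1 table of FPKM values per gene and library, and mm9, Bowtie 0.12.7 and Cufflinks appear in the submitters' processing notes without roles. Neither read counts nor the handling of strand and of multiply matching reads is known from the sources used here, so near-identical and overlapping genes are uncertain and no counting interval can be given. The 23813 rows were cut to 1 for each of 23309 symbols, the one with the highest mean. Columns headed control were matched to PBS by replicate number. A gene had to reach 1 FPKM in 3 or more of 9 libraries, which 9788 did. They were tested on log2(FPKM + 1) in R 4.3.3 by limma 3.58.1, whose prior variance followed a trend, two-sided and with Benjamini-Hochberg adjustment, and the fit was tested on simulated data.

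The genes and lists were chosen with earlier results of these data known. The naming rule took all 9 genes, near copies and, of the other pathway genes, those that passed and the 8 with the highest mean. The symbol Cd55b was found under its older name Daf2. Upstream sequences were RefSeq's on GRCm38.p6, and window sharing used the longest GENCODE M21 transcript. Alternatives covered the pseudocount, filters, scaling, variance model, groups in the fit, replicate block, a Y-linked term, duplicate symbols and left-out libraries. Removal of a length and GC trend and summed near copies were chosen after seeing the data.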

Additional observations from a re-analysis of the deposited data

How the results depend on the processing

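None of the 7 tested complement genes passed limma under any of the 23 alternatives that gave it a value. Cfb and C4b were fitted only with no filter, and did not pass there. Of 480 recomputed log2 changes, 431 kept their sign and 49 took the other one. The sign of C1ra and C1s against PBS held under all of them. With a library left out, C1ra ran from −1.64 to −0.85 and C1s from −1.78 to −0.92 on day 14 against PBS.

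Counts over all genes moved more. For day 9 against PBS 0 genes became 2 with no filter and 1 with only the 2 groups fitted, and 0 to 1 with a library left out. On day 14 against PBS, 1670 genes became 997 with no filter, 470 with only the 2 groups, 0 with the Y-linked term (2282 at an unadjusted p under 0.05) and 825 with the length and GC trend removed, and 0 to 1885 with a library left out. Between day 14 and day 9, 1536 became 881, 262 and 606 with no filter, only the 2 groups and the trend removed, and 381 to 2124 with a library left out. For day 14 against PBS, with no filter 1 of 50 pathway genes fitted passed (Cfi, at most at 0.0516 FPKM in any library). Of the 16 tested pathway genes, 1 passed at a common total (C8g) and 1 without the pair of libraries with markers of other cells (C8g). Between day 14 and day 9, 1 passed without that pair, Masp1, which met the filter only through day 14 and PBS libraries. A library left out gave 0 to 1 and 0 to 2. The cause was not tested.

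Scaling moved the split of calls. Higher calls were 37.1% of 1670 on day 14 against PBS, and 19.8% at a common total, 52.9% by median-of-ratios scaling, 48.5% by quantile normalization and 55.8% with the trend removed. Against day 9 they were 36.4%, and 17.7%, 56.1%, 55.9% and 60.2% under those settings in turn.

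Sign changes, all of changes that did not pass, were as follows. For day 9 against PBS Cd55 was at 0.082 with quantile normalization, 0.61 with the Y-linked term and 0.37 without the pair, and Cd59a at 0.089, 0.43 and 0.19. For day 14 against PBS Cd55 was at 0.045 with the Y-linked term, and Cd59a at 0.00078 with pseudocount 0.1, 0.54 with that term and 0.38 without the pair. Masp1 was at 0.022 without the pair. Between day 14 and day 9, C1ra was at −0.17 and Cd59a at −0.15 with no filter. Without the pair C1s was at 0.58, C3 at 0.33 and Serping1 at 0.29. C3 was at 0.22 with pseudocount 0.1, 0.12 at a common total, 0.17 with quantile normalization and 0.44 with the trend removed, and Cd59a at −0.024, −0.45 and −0.49 under the last 3.

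With a library left out, day 9 against PBS gave −0.36 to 0.37 for Cd55, −0.30 to 0.19 for Cd59a, −1.13 to 0.15 for Serping1 and −1.05 to 0.064 for Clu. Day 14 against PBS gave −0.42 to 0.38 for Cd59a and −1.22 to 0.022 for Masp1. Day 14 against day 9 gave −0.42 to 0.51 for C1ra, −0.65 to 0.33 for C1s, −0.37 to 0.20 for C3, −0.31 to 0.48 for Cd59a, −0.87 to 0.11 for Serping1 and −0.38 to 0.27 for Clu.

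Same-numbered libraries correlated at −0.27 to 0.43 in their deviations from the group means, so the numbers were not taken to pair them. With the replicate block 1301 genes passed for day 14 against PBS, 1200 for day 14 against day 9 and 0 for day 9 against PBS, and the smallest adjusted p of a complement gene was 0.0504 (C1ra, day 14 against PBS, limma). Day 14 depth, 0.239 to 0.569 of that of PBS replicate 2, limits what can be said of C3, C4b and Cfb.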
